A study of Mus musculus with 36 samples.

Results

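The RNA of 10 genes that load, empty and refill the calcium store of the endoplasmic reticulum (ER) was followed in mouse embryonic fibroblasts under 2 stresses. They were taken by symbol from a list of ER calcium pumps, release channels and store-entry genes, and all 10 of the 10 listed were found among the 54735 symbols of the deposited table. Levels are in TPM, a length-corrected share of the transcripts in each library. The study asked which genes mark the activity of the stress kinases GCN2 or PERK.

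RNA was sequenced from 3 fibroblast lines, namely cells deleted for GCN2 (GCN2-del), cells deleted for PERK (PERK-del) and wild-type cells (WT). Each line was given 200 nM thapsigargin, its solvent DMSO, medium lacking lysine and arginine (AAS), or nothing (untreated). Thapsigargin and AAS lasted 6 h, and no time is given for DMSO. All cells were grown in RPMI medium with fetal bovine serum. Each of the 12 groups held 3 libraries, which the labels call technical replicates, and only 1 line per genotype is described. Genotype and line therefore cannot be told apart, and each p-value measures the spread between such libraries. Thapsigargin was set against DMSO and AAS against untreated cells, and no group received a change to complete medium alone.

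Calcium is kept in the ER by SERCA pumps of the ER membrane, encoded here by Atp2a2 (SERCA2, the housekeeping form) and Atp2a3 (SERCA3). It leaves through IP3 receptors, encoded by Itpr1, Itpr2 and Itpr3, which open when cells make inositol trisphosphate, and PMCA pumps of the plasma membrane, here Atp2b1 (PMCA1) and Atp2b4 (PMCA4), expel it from the cell. When the store empties, the ER sensors STIM1 and STIM2 gather under the plasma membrane and open the ORAI1 channel, which lets calcium in for refilling. Thapsigargin blocks the SERCA pumps, so the store leaks empty, proteins misfold in the ER and PERK becomes active. Lack of amino acids activates GCN2.

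The deleted genes and known stress genes were checked first. In untreated cells the GCN2 gene Eif2ak4 averaged 5.25 ± 0.619 TPM in GCN2-del and 24.6 ± 3.81 TPM in WT (SD, n = 3 each), and the PERK gene Eif2ak3 averaged 4.22 ± 0.353 TPM in PERK-del and 6.99 ± 0.878 TPM in WT. Eif2ak3 stood at 3.98 TPM in starved WT cells too, so its RNA level alone does not mark the PERK deletion. The ER chaperone gene Hspa5 rose with thapsigargin by 2.54, 2.79 and 2.83 on the log2(TPM + 1) scale in GCN2-del, PERK-del and WT. With AAS the stress genes Ddit3, Trib3 and Herpud1 rose by 1.93, 3.39 and 1.97 in WT and changed by -1.08, -1.72 and -1.21 in GCN2-del. In PERK-del they changed by -0.27, 0.27 and -0.29, with Trib3 at an adjusted p of 0.158 (limma). Hspa5 changed with AAS by 0.12 in WT and -0.01 in PERK-del. Starvation results of PERK-del are to be read with that. Of 10 fibroblast markers, 8 averaged at least 1 TPM, while all 5 endothelial and all 5 epithelial markers were below that level. Single fibroblast markers varied widely over the 36 libraries, with Col3a1 at 0.203 to 270 TPM and Vim at 1394 to 3184 TPM. Their untreated sums were 6363 to 6577 TPM in GCN2-del, 2849 to 3114 TPM in PERK-del and 3926 to 4555 TPM in WT. Muscle markers averaged at least 1 TPM for 3 of 8 genes, leukocyte markers for 1 of 6 and neuronal markers for 2 of 5. TPM keeps no read depth, so no counting interval or detection limit can be given. In bulk RNA, fewer cells of a kind and less RNA per cell cannot be told apart. Within groups, libraries differed in the share of protein-coding TPM held by genes with long transcripts (6000 bases or more), which was 5.51% and 5.53% in WT thapsigargin replicates 2 and 3 against 6.45% in replicate 1. It was also low in WT DMSO replicate 2 and WT untreated replicate 3, and calls that change without one of these libraries are given beside the results.

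The pump that thapsigargin blocks was the most abundant of the 10 genes. Atp2a2 ranged over 169 to 378 TPM in the 36 libraries, with a mean of 249 TPM, and overlapped no other member. Atp2b1 came next with a mean of 81.4 TPM and a range of 50.7 to 132 TPM. Itpr3 followed at 44.0 TPM and overlapped the range of Atp2b1. Stim2 averaged 31.3 TPM and overlapped Itpr3, but not Atp2b1. Itpr1, Orai1 and Stim1 averaged 18.4, 18.0 and 15.1 TPM, and these 3 could not be ranked beyond their spread. Itpr2 averaged 2.59 TPM and Atp2b4 1.96 TPM, again with overlapping ranges. Atp2a3 was the scarcest, at a mean of 0.472 TPM, and reached 1 TPM in 4 of the 36 libraries, namely WT thapsigargin replicates 2 and 3, WT AAS replicate 3 and PERK-del AAS replicate 1. All 10 passed the filter for testing, which asked for at least 1 TPM in at least 3 libraries, but Atp2a3 did so only through groups in which it was high, and its tests are to be read with that.

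**Figure D1:**
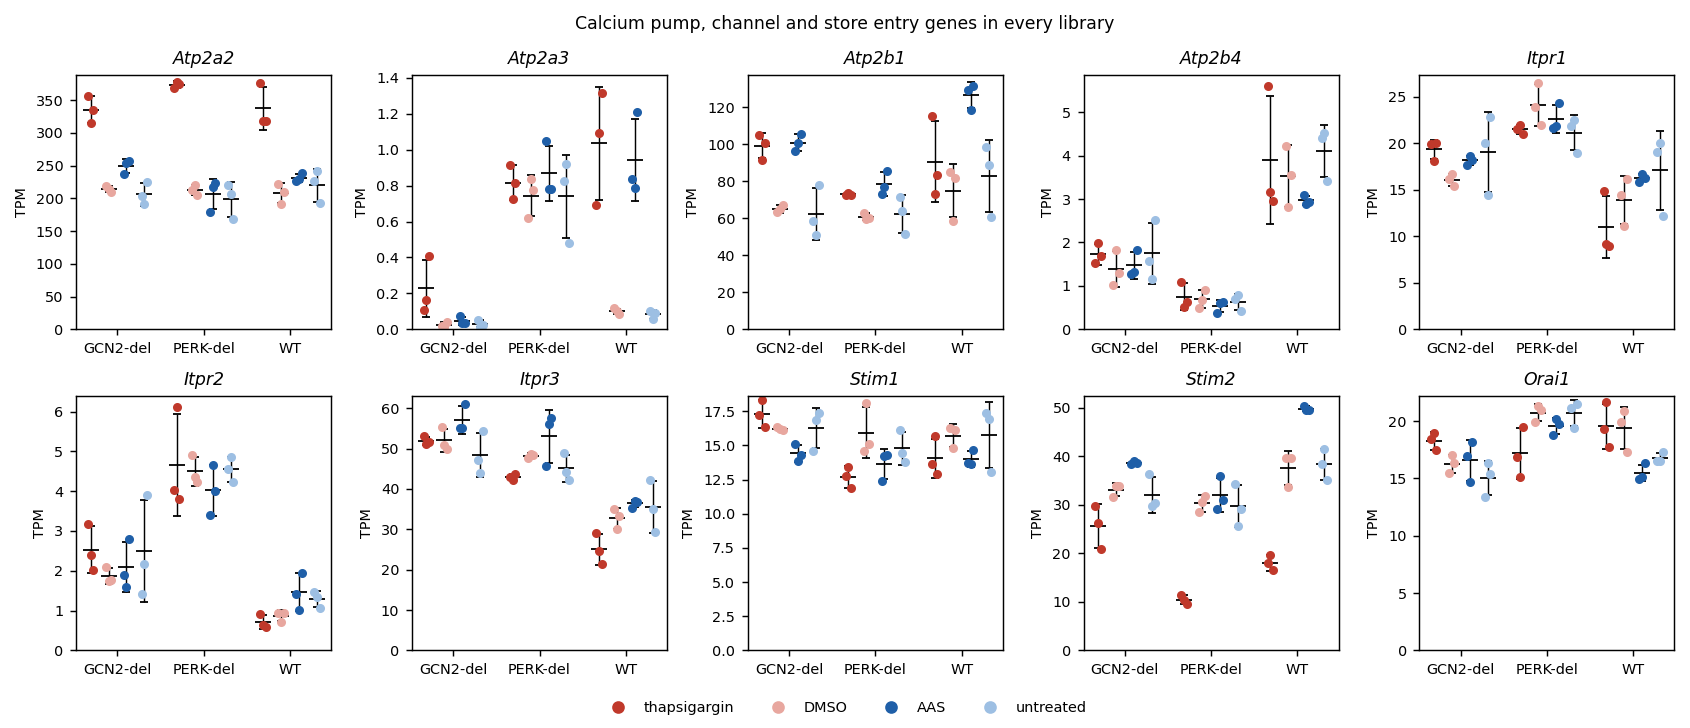
TPM of each of the 10 genes in every library (points, coloured by treatment), with the 3 lines along the horizontal axis and the mean and SD of each group of 3 in black; each panel has its own linear axis starting at 0. Atp2a2 is highest in the 3 thapsigargin groups (315 to 378 TPM), Stim2 is lowest in PERK-del with thapsigargin, and Atp2a3 is near 1 TPM in stressed WT cells and in every PERK-del group.

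The 10 genes lie on 7 chromosomes in the GENCODE M21 annotation of GRCm38 (mm10). Atp2a2 (chr5:122453513-122502225, minus strand), Orai1 (chr5:123015074-123030456, plus strand) and Stim2 (chr5:53998499-54121057, plus strand) share chromosome 5. Itpr1 (chr6:108213096-108551109, plus strand) and Itpr2 (chr6:146108299-146502223, minus strand) share chromosome 6. Atp2a3 lies at chr11:72961169-72993044, Atp2b1 at chr10:98914406-99026143, Itpr3 at chr17:27057304-27122223 and Stim1 at chr7:102267806-102437319, all on the plus strand. Atp2b4 lies at chr1:133699457-133801041 on the minus strand. All are protein coding, and the values are sums over whole genes, so isoforms were not separated.

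Promoters were searched because many ER chaperone genes carry the ER stress element, in which CCAAT and CCACG stand 9 bases apart. RefSeq windows (GRCm38.p6, 250 bases before the start) were present for 8 of the 10 genes. Atp2a2 and Itpr1 are named only. Shown are Stim2, the member that fell most with thapsigargin, Atp2a3, the member whose responses differed most between lines, and the chaperone gene Hspa5 for comparison. Capitals mark CCAAT or CCACG on either strand, and each window is read 5′ to 3′ on the plus strand, which is the strand of all 3 genes.
Stim2 (chr5:53998273-53998522): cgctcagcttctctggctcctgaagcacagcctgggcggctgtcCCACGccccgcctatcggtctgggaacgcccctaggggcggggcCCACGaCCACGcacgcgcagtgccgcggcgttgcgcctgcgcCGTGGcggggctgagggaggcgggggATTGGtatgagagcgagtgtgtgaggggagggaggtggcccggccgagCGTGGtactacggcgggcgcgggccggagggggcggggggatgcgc
Atp2a3 (chr11:72960919-72961168): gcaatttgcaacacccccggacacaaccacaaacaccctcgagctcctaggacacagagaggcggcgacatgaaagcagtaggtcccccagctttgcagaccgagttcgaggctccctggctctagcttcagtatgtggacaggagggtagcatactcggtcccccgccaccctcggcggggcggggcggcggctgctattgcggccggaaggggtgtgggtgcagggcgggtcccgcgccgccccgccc
Hspa5 (chr2:34771840-34772089): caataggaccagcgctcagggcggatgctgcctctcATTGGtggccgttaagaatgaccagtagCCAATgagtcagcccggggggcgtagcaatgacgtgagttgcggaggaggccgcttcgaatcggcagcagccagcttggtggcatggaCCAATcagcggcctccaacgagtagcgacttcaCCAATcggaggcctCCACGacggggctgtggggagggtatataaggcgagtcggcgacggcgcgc

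The whole element (CCAAT, any 9 bases, CCACG) was found at -65 to -47 in the Hspa5 window and in none of the 8 members, against 0.113% of 32851 RefSeq promoter windows. The second ER stress element (ATTGG, any base, CCACG; 0.0304% of windows), the core bound by the spliced form of XBP1 (TGACGTGG, 0.563%) and the amino acid response element (TGATGCAA, 0.791%) were also in none of the 8. CCAAT alone occurred in Itpr2, Orai1 and Stim2, against 33.8% of all windows. CCACG alone occurred in Itpr2, Itpr3, Orai1 and Stim2, against 28.3% of windows, and the Stim2 window held 5 matches. The Atp2a3 window held neither. Both strands were searched, the short letters lie within the longer motifs, and a match of letters is a description and not a site of binding.

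Thapsigargin raised the RNA of its own target and lowered that of Stim2 in all 3 lines. In GCN2-del 2 of the 10 genes rose and 1 fell, in PERK-del 1 rose and 1 fell, and in WT 2 rose and 2 fell, at an adjusted p under 0.05 (limma, Benjamini-Hochberg). Of all 16083 genes tested, 25.4% rose and 11.2% fell in GCN2-del, 2.49% rose and 2.75% fell in PERK-del, and 11.4% rose and 14.8% fell in WT. After median-of-ratios rescaling of libraries these shares were 18.6% and 20.0% in GCN2-del, 3.89% and 2.65% in PERK-del, and 15.2% and 14.7% in WT. The median change of the 10 genes was 0.23 against 0.08 for all genes in GCN2-del, -0.07 against -0.04 in PERK-del and -0.06 against -0.04 in WT, in log2 units.

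Atp2a2 was higher with thapsigargin in every library of every line. GCN2-del held 357, 315 and 334 TPM with thapsigargin and 219, 215 and 210.0 TPM with DMSO. PERK-del held 368, 378 and 375 TPM with thapsigargin and 213, 219.7 and 205 TPM with DMSO. WT held 376, 318 and 319 TPM with thapsigargin and 222, 192 and 209.9 TPM with DMSO. The lowest treated library thus stood well above the highest DMSO library in each line. The log2 change was 0.64 ± 0.09 in GCN2-del (SE, adjusted p = 2.4e-06, limma), 0.81 ± 0.09 in PERK-del (adjusted p = 2.8e-07) and 0.69 ± 0.09 in WT (adjusted p = 9.0e-07). Against WT, the change in GCN2-del differed by -0.05 (95% interval -0.32 to 0.21, adjusted p = 0.836, limma) and that in PERK-del by 0.12 (-0.15 to 0.38, adjusted p = 0.664). With the size of libraries rescaled by median of ratios the GCN2-del difference was -0.25 (adjusted p = 0.0358, limma), a setting that moved the median difference of all genes by -0.15. With the long-transcript share as a covariate, chosen after the data were seen, the GCN2-del difference was -0.40 (adjusted p = 0.0063, limma).

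The SERCA3 gene Atp2a3, known mainly from blood, endothelial and epithelial cells, responded by line. GCN2-del held 0.110, 0.165 and 0.410 TPM with thapsigargin and 0.0181, 0.0127 and 0.0427 TPM with DMSO. PERK-del held 0.915, 0.723 and 0.812 TPM with thapsigargin and 0.617, 0.838 and 0.777 TPM with DMSO. WT held 0.694, 1.09 and 1.32 TPM with thapsigargin and 0.116, 0.101 and 0.0877 TPM with DMSO. The WT groups and the GCN2-del groups did not overlap, while PERK-del was near 0.8 TPM with and without thapsigargin. The rise passed the test in WT, with a log2 change of 0.87 ± 0.12 (SE, adjusted p = 2.9e-06, limma) and a ratio of mean TPM of 10.2. Atp2a3 passed the filter in part through WT thapsigargin replicates 2 and 3, so this test is to be read with that. In GCN2-del the ratio of means was 9.31 but the change on the log2(TPM + 1) scale was 0.25 (adjusted p = 0.113, limma), since that scale understates changes of genes below 1 TPM. With 0.1 TPM added in place of 1, the changes were 1.30 in GCN2-del (adjusted p = 0.00262, limma), 0.12 in PERK-del (adjusted p = 0.964) and 2.46 in WT (adjusted p = 1.3e-06). Endothelial markers, all 5 of which averaged under 1 TPM over the 36 libraries and none of which was at 0 throughout, summed to 5.15 to 6.84 TPM with thapsigargin and 2.20 to 3.89 TPM with DMSO in GCN2-del, so they moved with Atp2a3 in that line. In WT they summed to 0.452 to 0.804 TPM with thapsigargin and 0.579 to 1.17 TPM with DMSO, and in PERK-del to 1.37 to 1.66 TPM with thapsigargin and 1.05 to 2.27 TPM with DMSO. All 5 epithelial markers averaged under 1 TPM, and in the lymphoid and platelet list Itga2b alone reached that level. The part of other cells in Atp2a3 was not tested.

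Of the PMCA genes, Atp2b1 passed with thapsigargin in GCN2-del alone. Atp2b1 rose in GCN2-del, with 105, 91.7 and 101 TPM under thapsigargin and 63.2, 65.0 and 67.3 TPM under DMSO (log2 change 0.60 ± 0.16, adjusted p = 0.00455, limma). In PERK-del it averaged 72.9 ± 0.522 TPM with thapsigargin and 60.9 ± 1.82 TPM with DMSO (SD, n = 3 each), and the groups did not overlap, but the change of 0.25 did not pass (adjusted p = 0.524, limma). In WT it averaged 90.7 ± 21.8 TPM with thapsigargin and 75.0 ± 14.5 TPM with DMSO, overlapping groups with a change of 0.26 (adjusted p = 0.264, limma). With the long-transcript share as a covariate, an adjustment chosen after the data were seen, these calls changed places: 0.12 in GCN2-del (adjusted p = 0.275, limma), 0.30 in PERK-del (adjusted p = 0.00452) and 0.47 in WT (adjusted p = 8.2e-06). Atp2b4 passed in no line, and its groups overlapped in all 3.

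Among the IP3 receptors, Itpr3 was lower in WT with thapsigargin, at 29.1, 24.7 and 21.3 TPM, against 35.0, 30.0 and 33.2 TPM with DMSO. These groups did not overlap, and the fall was 0.38 ± 0.11 in log2 units (adjusted p = 0.00707, limma). Without WT thapsigargin replicate 3 the change was -0.28 (adjusted p = 0.0814), so the call rests on that library. In PERK-del Itpr3 averaged 42.9 ± 0.773 TPM with thapsigargin and 48.3 ± 0.561 TPM with DMSO (SD, n = 3 each), a change of -0.17 that did not pass (adjusted p = 0.524, limma). In GCN2-del both means were 52.0 TPM. Itpr1 in WT held 14.8, 9.15 and 8.92 TPM with thapsigargin and 14.4, 11.1 and 16.2 TPM with DMSO, overlapping groups with a change of -0.34 (adjusted p = 0.139, limma). The Itpr1 change passed without WT DMSO replicate 2 (-0.48, adjusted p = 0.0419, limma) and without WT thapsigargin replicate 1 (-0.56, adjusted p = 0.00937). In GCN2-del Itpr1 held 19.9, 18.1 and 20.0 TPM with thapsigargin and 16.1, 16.7 and 15.4 TPM with DMSO, without overlap. That rise did not pass, but did with the compared groups alone (0.25, adjusted p = 0.0352, limma). In PERK-del Itpr1 averaged 21.5 ± 0.471 TPM with thapsigargin and 24.1 ± 2.23 TPM with DMSO, without passing. Itpr2 passed in no line and was under 1 TPM in all 6 of the WT thapsigargin and DMSO libraries.

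The sensor gene Stim2, whose protein responds to small drops in ER calcium, was the member that fell in every line. GCN2-del held 29.8, 26.3 and 20.8 TPM with thapsigargin and 31.6, 33.9 and 34.0 TPM with DMSO. PERK-del held 11.4, 10.4 and 9.53 TPM with thapsigargin and 28.5, 30.7 and 31.7 TPM with DMSO. WT held 18.0, 19.6 and 16.5 TPM with thapsigargin and 39.6, 33.6 and 39.8 TPM with DMSO. No groups overlapped within a line, and GCN2-del with thapsigargin came closest to its DMSO group. The fall was 0.37 ± 0.11 in GCN2-del (SE, adjusted p = 0.00784, limma), 1.46 ± 0.11 in PERK-del (adjusted p = 8.9e-11) and 1.02 ± 0.11 in WT (adjusted p = 2.3e-08). In GCN2-del the call was lost without thapsigargin replicate 3 (-0.24, adjusted p = 0.102, limma).

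The other sensor and the channel passed with thapsigargin in no line. Stim1, the main sensor of a depleted store, averaged 17.3 ± 1.01 TPM with thapsigargin and 16.2 ± 0.0948 TPM with DMSO in GCN2-del, and 14.1 ± 1.44 TPM with thapsigargin and 15.7 ± 0.811 TPM with DMSO in WT (SD, n = 3 each). In PERK-del it held 12.8, 13.4 and 11.9 TPM with thapsigargin and 14.6, 18.1 and 15.1 TPM with DMSO, groups that did not overlap. That change of -0.30 missed the threshold (adjusted p = 0.0582, limma), and passed without PERK-del DMSO replicate 1 (-0.36, adjusted p = 0.045). Orai1, the pore of the store-operated channel, averaged 17.2 ± 2.19 TPM with thapsigargin and 20.7 ± 0.726 TPM with DMSO in PERK-del (log2 change -0.26, adjusted p = 0.0804, limma). Without PERK-del thapsigargin replicate 3 that change was -0.35 (adjusted p = 0.0209, limma). In WT, Orai1 averaged 19.5 ± 1.98 TPM with thapsigargin and 19.4 ± 1.83 TPM with DMSO. In GCN2-del, Orai1 held 18.4, 18.9 and 17.4 TPM with thapsigargin and 15.4, 17.0 and 16.3 TPM with DMSO, without overlap. That rise did not pass against DMSO, but did against untreated cells (0.27, adjusted p = 0.0134, limma).

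**Figure D2:**
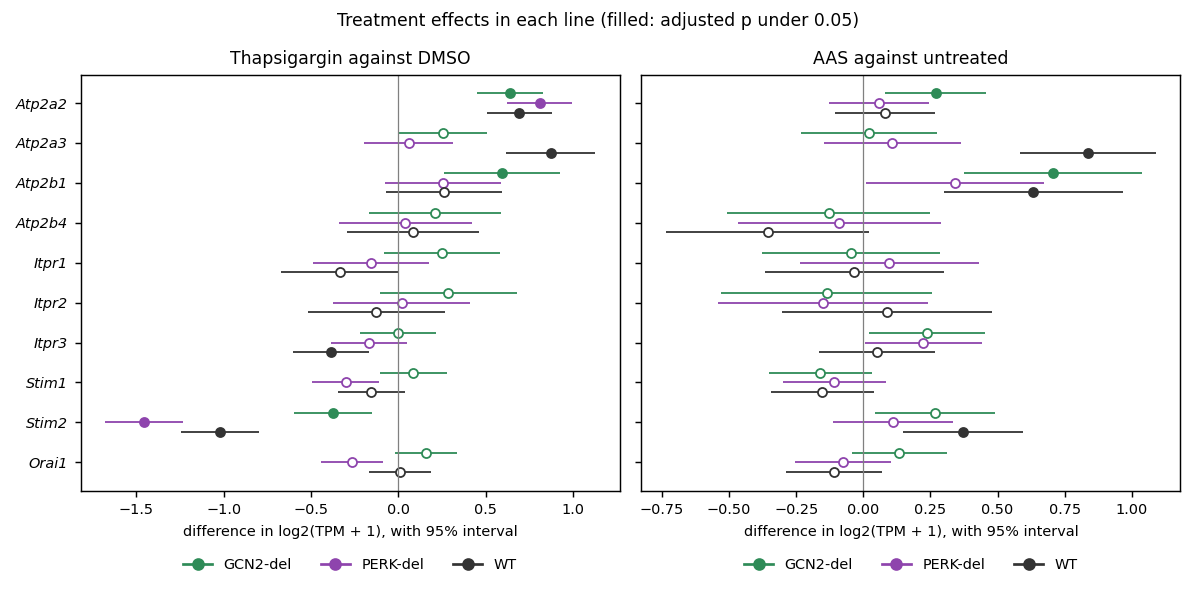
Log2 change in TPM + 1 with its 95% interval for each of the 10 genes, for thapsigargin against DMSO and for AAS against untreated cells, in GCN2-del, PERK-del and WT; filled points passed an adjusted p of 0.05 (limma). Atp2a2 lies to the right (0.64 to 0.81) and Stim2 to the left (-0.37 to -1.46) in all 3 lines under thapsigargin, while under AAS Stim2 lies to the right.

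Amino acid starvation raised Atp2b1 in GCN2-del and WT, and also raised Atp2a3 and Stim2 in WT. In GCN2-del 2 of the 10 genes rose and 0 fell, in PERK-del 0 rose and 0 fell, and in WT 3 rose and 0 fell. Of all genes tested, 11.7% rose and 12.1% fell in GCN2-del, 5.67% rose and 6.32% fell in PERK-del, and 12.5% rose and 17.3% fell in WT. The median change of the 10 genes was 0.08 against 0.00 for all genes in GCN2-del, 0.08 against -0.02 in PERK-del and 0.07 against -0.05 in WT. The AAS groups carry both the lack of lysine and arginine and any change of medium. In PERK-del the stress genes Ddit3 and Herpud1 did not rise with AAS either. The 8 striated muscle markers, of which Des, Acta1 and Tnnt2 averaged at least 1 TPM and none was at 0 throughout, summed to 23.8 to 25.2 TPM when starved and 9.81 to 11.0 TPM untreated in GCN2-del. They summed to 26.8 to 31.4 TPM when starved and 12.9 to 14.4 TPM untreated in PERK-del, and to 24.3 to 25.7 TPM when starved and 9.35 to 10.0 TPM untreated in WT. Their part in the member changes was not tested.

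Atp2b1, the ubiquitous calcium exporter, held 96.3, 101 and 106 TPM in starved GCN2-del and 58.6, 50.7 and 77.9 TPM in untreated GCN2-del. In WT it held 129, 118 and 132 TPM when starved and 98.3, 88.8 and 60.9 TPM untreated. Neither line's groups overlapped, and the changes were 0.71 ± 0.16 in GCN2-del (adjusted p = 0.00176, limma) and 0.63 ± 0.16 in WT (adjusted p = 0.00332). The untreated groups were widely spread, and their lowest libraries, GCN2-del replicate 2 and WT replicate 3, were also the lowest in long-transcript share. With that share as a covariate the GCN2-del change was 0.40 (adjusted p = 0.000162, limma). PERK-del held 73.1, 77.0 and 85.7 TPM when starved and 71.6, 63.7 and 51.4 TPM untreated. The PERK-del groups were apart by a narrow margin, and the change of 0.34 did not pass (adjusted p = 0.19, limma). In PERK-del, Atp2b1 and Itpr3 were the 2 members with an unadjusted p under 0.05, and both passed after median-of-ratios rescaling.

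Atp2a3 held 0.835, 0.785 and 1.21 TPM in starved WT and 0.103, 0.0551 and 0.0909 TPM in untreated WT. These groups did not overlap, and the log2 change was 0.84 ± 0.12 (adjusted p = 5.0e-06, limma) with a ratio of means of 11.3. Atp2a3 passed the filter in part through WT AAS replicate 3, so this test is to be read with that. In GCN2-del it stayed under 0.1 TPM in every starved and untreated library, with means of 0.0468 and 0.0312 TPM. In PERK-del it averaged 0.869 ± 0.153 TPM when starved and 0.740 ± 0.231 TPM untreated (SD, n = 3 each), and these groups overlapped.

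Stim2 was higher in starved cells of WT, at 50.5, 49.5 and 49.5 TPM, against 38.4, 41.4 and 35.2 TPM untreated. The groups did not overlap, and the change was 0.37 ± 0.11 (adjusted p = 0.00963, limma), opposite in sign to its change under thapsigargin. In GCN2-del it averaged 38.7 ± 0.369 TPM when starved and 32.1 ± 3.71 TPM untreated (SD, n = 3 each), a change of 0.27 that did not pass (adjusted p = 0.0758, limma) but did without GCN2-del untreated replicate 1 (0.36, adjusted p = 0.0339). In PERK-del the means were 32.1 and 29.7 TPM, with overlapping groups.

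Atp2a2 passed with starvation in GCN2-del, where it held 236, 253 and 256 TPM when starved and 203, 191 and 225 TPM untreated. The groups did not overlap, but the gap was small. The change of 0.27 ± 0.09 (adjusted p = 0.0315, limma) was lost when any of 4 libraries was left out, namely AAS replicate 2 (adjusted p = 0.0906) or 3 (adjusted p = 0.104) and untreated replicate 1 (adjusted p = 0.0877) or 2 (adjusted p = 0.157). It was 0.21 against DMSO in place of untreated cells (adjusted p = 0.12, limma), and 0.11 with the long-transcript share as a covariate (adjusted p = 0.137). In PERK-del Atp2a2 averaged 206 ± 23.4 TPM when starved and 199 ± 26.8 TPM untreated, and in WT 232 ± 6.04 TPM when starved and 220.0 ± 25.0 TPM untreated (SD, n = 3 each). Itpr1, Itpr2, Itpr3, Stim1, Orai1 and Atp2b4 passed with starvation in no line. Without WT untreated replicate 3, Stim1 passed in WT (-0.28, adjusted p = 0.0202, limma), and without GCN2-del untreated replicate 3, Itpr3 passed in GCN2-del (0.32, adjusted p = 0.0428).

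DMSO alone changed 0 of the 10 genes against untreated cells in each of the 3 lines (limma). Of all genes, 0.137% passed in GCN2-del, 0.236% in PERK-del and 0.0808% in WT. At an unadjusted p under 0.05 the count was 0 in GCN2-del, 0 in PERK-del and 1 in WT. That gene was Orai1, at 19.9, 20.8 and 17.3 TPM with DMSO and 16.5, 16.5 and 17.3 TPM untreated in WT (log2 change 0.19, adjusted p = 0.314, limma). The 13 genes that passed in WT became 1467 without WT untreated replicate 3, the library low in long transcripts.

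Untreated, pump, receptor and store-entry genes were among those that differed from WT in PERK-del, and pump and receptor genes in GCN2-del. Much of the table differed as well. GCN2-del was higher in 2 and lower in 2 of the 10, where 21.2% of all genes were higher and 23.2% lower. The GCN2-del counts were thus near the shares of all genes. PERK-del was higher in 4 and lower in 3 of the 10, where 31.1% of all genes were higher and 18.5% lower (25.8% and 25.6% after median-of-ratios rescaling). The PERK-del counts were somewhat above these shares, which was not tested, and only 3 of the 10 passed with the compared groups alone. The median difference of the 10 genes was -0.08 against -0.05 for all genes in GCN2-del and 0.10 against 0.08 in PERK-del. The 5 neuronal markers, of which Tubb3 and Map2 averaged at least 1 TPM and none was at 0 throughout, differed too, with sums of 25.1 to 31.8 TPM in GCN2-del, 13.1 to 16.0 TPM in PERK-del and 35.6 to 44.0 TPM in WT. Their part in the differences was not tested.

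On the log2(TPM + 1) scale, Atp2b4 was the member with the widest gap. It held 1.57, 1.15 and 2.53 TPM in GCN2-del, 0.705, 0.780 and 0.427 TPM in PERK-del and 4.40, 4.51 and 3.41 TPM in WT. The 3 lines did not overlap, and against WT the difference was -0.92 ± 0.18 in GCN2-del (adjusted p = 0.000163, limma) and -1.64 ± 0.18 in PERK-del (adjusted p = 1.8e-08). Atp2b1 averaged 62.4 ± 14.0 TPM in GCN2-del, 62.2 ± 10.2 TPM in PERK-del and 82.7 ± 19.4 TPM in WT (SD, n = 3 each), and each deletion line overlapped WT. Both differences were -0.39 (adjusted p = 0.0493 in GCN2-del and 0.0476 in PERK-del, limma). The GCN2-del call was lost without GCN2-del replicate 1 or 2 (adjusted p = 0.126 and 0.261) or WT replicate 1 or 2 (adjusted p = 0.268 and 0.156). The PERK-del call was lost without PERK-del replicate 2 or 3 (adjusted p = 0.071 and 0.239) or WT replicate 1 or 2 (adjusted p = 0.246 and 0.153). Between DMSO groups the Atp2b1 differences were -0.18 in GCN2-del (adjusted p = 0.41, limma) and -0.28 in PERK-del (adjusted p = 0.158).

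Itpr2, the receptor most sensitive to IP3, ran the other way. It held 1.42, 2.18 and 3.91 TPM in GCN2-del, 4.55, 4.85 and 4.24 TPM in PERK-del and 1.46, 1.35 and 1.06 TPM in WT. PERK-del stood above every other untreated library, while GCN2-del overlapped WT and was widely spread. The difference from WT was 0.55 ± 0.19 in GCN2-del (adjusted p = 0.0195, limma) and 1.28 ± 0.19 in PERK-del (adjusted p = 2.3e-06). The GCN2-del call was lost without GCN2-del replicate 3 (0.28, adjusted p = 0.227) or WT replicate 3 (0.48, adjusted p = 0.0685). Itpr3 held 47.1, 43.8 and 54.3 TPM in GCN2-del, 48.9, 44.3 and 42.3 TPM in PERK-del and 42.3, 35.0 and 29.2 TPM in WT. GCN2-del was above WT in every library, and the lowest PERK-del library was level with the highest WT library. The differences were 0.45 ± 0.11 (adjusted p = 0.000948, limma) in GCN2-del and 0.35 ± 0.11 (adjusted p = 0.00673) in PERK-del. The PERK-del call was lost without WT replicate 3 (0.22, adjusted p = 0.0864). Itpr1 passed in neither line, with differences of 0.16 in GCN2-del (adjusted p = 0.457, limma) and 0.32 in PERK-del (adjusted p = 0.109). In PERK-del it did pass between DMSO groups (0.77, adjusted p = 0.000228, limma), with the long-transcript covariate (0.32, adjusted p = 0.00566) and without WT replicate 2 (0.44, adjusted p = 0.0426).

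Atp2a3 was already high in untreated PERK-del, at 0.824, 0.918 and 0.479 TPM, against 0.103, 0.0551 and 0.0909 TPM in WT. These lines did not overlap, with a difference of 0.68 ± 0.12 (adjusted p = 4.2e-05, limma) and a ratio of means of 8.92. Stim2 averaged 29.7 ± 4.32 TPM in PERK-del and 38.3 ± 3.12 TPM in WT (SD, n = 3 each), a difference of -0.36 ± 0.11 (adjusted p = 0.0064, limma) that was lost without PERK-del replicate 2 (-0.27, adjusted p = 0.0634). Orai1 held 21.1, 19.4 and 21.5 TPM in PERK-del and 16.5, 16.5 and 17.3 TPM in WT, a gap without overlap and a difference of 0.29 ± 0.09 (adjusted p = 0.00695, limma). Between the DMSO groups, Orai1 differed by 0.10 (adjusted p = 0.371, limma). Atp2a2 and Stim1 passed in neither line, and Stim2 did not pass in GCN2-del (-0.25, adjusted p = 0.0633, limma). Without WT replicate 3, Atp2a2 passed in PERK-del (-0.24, adjusted p = 0.0391, limma) and Stim2 in GCN2-del (-0.31, adjusted p = 0.0366). In PERK-del, Atp2a2 also passed with the long-transcript covariate (-0.14, adjusted p = 0.0215, limma) and after median-of-ratios rescaling (-0.26, adjusted p = 0.000273). Stim1 passed there after rescaling too (-0.19, adjusted p = 0.044, limma). That rescaling moved the median difference of all genes by -0.08. Stim2 also passed in GCN2-del without GCN2-del replicate 1 (-0.34, adjusted p = 0.0222, limma).

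A difference of responses between lines passed the test for Atp2a3 and Stim2. The difference of thapsigargin effects, GCN2-del minus WT, passed for these 2 members, with 14.2% of all genes called, and PERK-del minus WT passed for Atp2a3, with 12.9% called. For starvation, Atp2a3 passed in both, with 7.71% of all genes called for GCN2-del minus WT and 10.8% for PERK-del minus WT. Both differences for a stress share the WT libraries, and Atp2a3 entered testing only through groups in which it was high.

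On the log2(TPM + 1) scale the Atp2a3 changes were smaller in the deletion lines than in WT. For thapsigargin in GCN2-del this holds on that scale only, since the ratio of means was 9.31 there and 10.2 in WT. The thapsigargin difference was -0.62 ± 0.17 for GCN2-del (adjusted p = 0.0197, limma) and -0.81 ± 0.17 for PERK-del (adjusted p = 0.0017). The starvation difference was -0.81 ± 0.17 for GCN2-del (adjusted p = 0.00233, limma) and -0.73 ± 0.17 for PERK-del (adjusted p = 0.00536). GCN2-del was low before and after starvation, whereas PERK-del was high before both stresses. The GCN2-del thapsigargin difference was lost without GCN2-del thapsigargin replicate 1 (-0.55, adjusted p = 0.056), WT thapsigargin replicate 2 (-0.59, adjusted p = 0.0547) or WT thapsigargin replicate 3 (-0.52, adjusted p = 0.0778). With 0.1 TPM added in place of 1, that difference was -1.16 (adjusted p = 0.0992, limma) and the other 3 were -2.33 for thapsigargin in PERK-del, -2.33 for starvation in GCN2-del and -2.26 for starvation in PERK-del, all still called.

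Stim2 fell less in GCN2-del than in WT, with a difference of thapsigargin effects of 0.65 ± 0.15 (adjusted p = 0.00646, limma). With the long-transcript share as a covariate it was 0.52 (adjusted p = 0.0899). The difference for PERK-del was -0.43, with a 95% interval of -0.75 to -0.12, and missed the threshold (adjusted p = 0.0642, limma). It passed without PERK-del thapsigargin replicate 1 (-0.49, adjusted p = 0.04998, limma) and with 0.1 TPM added (-0.47, adjusted p = 0.0483). The PERK-del difference also passed with the long-transcript covariate (-0.46, adjusted p = 0.03, limma) and with the compared groups alone (-0.43, adjusted p = 0.0427). For Itpr1 the GCN2-del minus WT difference for thapsigargin was 0.59 (adjusted p = 0.0843, limma), and it passed without WT DMSO replicate 2 (0.73, adjusted p = 0.0285) or WT thapsigargin replicate 1 (0.81, adjusted p = 0.00903). For Itpr3 it was 0.38 (adjusted p = 0.085, limma), and 0.49 without WT thapsigargin replicate 1 (adjusted p = 0.0205).

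**Figure D3:**
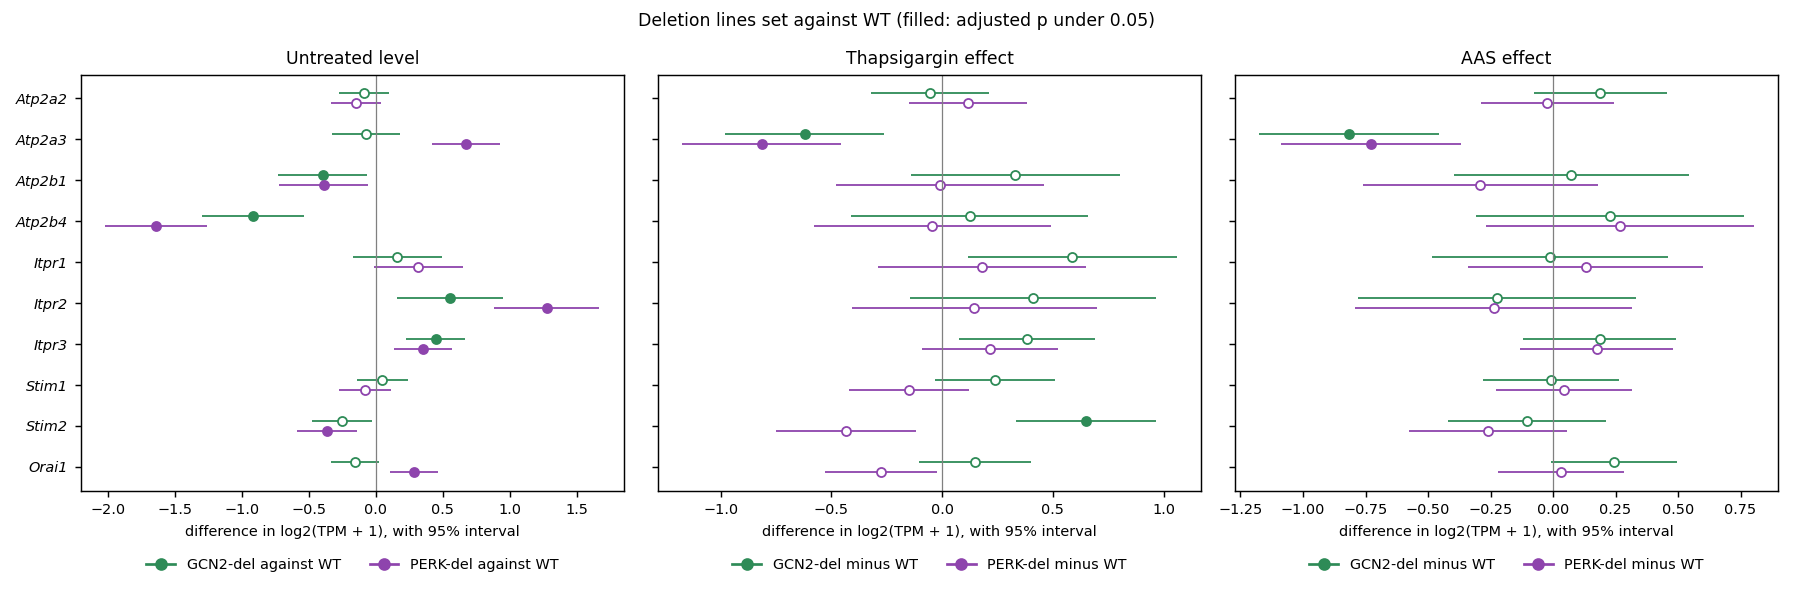
Untreated level of each deletion line against WT, and difference of its thapsigargin effect and of its AAS effect from WT, in log2(TPM + 1) units with 95% intervals, for the 10 genes; filled points passed an adjusted p of 0.05 (limma). Atp2a3 lies left of 0 in all 4 differences of effects (-0.62 to -0.81), Stim2 lies right of 0 for thapsigargin in GCN2-del (0.65), and the widest untreated gap is that of Atp2b4 in PERK-del (-1.64).

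Within each protein family the makeup of the RNA pool moved unequally. Of the summed Stim1 and Stim2 TPM, Stim2 made up 59.4% ± 3.69 with thapsigargin and 67.1% ± 1.04 with DMSO in GCN2-del (SD, n = 3 each). The Stim2 share was 45.1% ± 1.88 with thapsigargin and 65.6% ± 2.44 with DMSO in PERK-del, where Stim1 became the larger part. In WT it was 56.2% ± 0.676 with thapsigargin and 70.5% ± 0.924 with DMSO. The summed sensor RNA was 42.9 TPM with thapsigargin and 49.4 TPM with DMSO in GCN2-del, 23.1 and 46.2 TPM in PERK-del, and 32.1 and 53.4 TPM in WT. Under starvation the Stim2 share in WT was 78.1% ± 0.807, against 70.9% ± 2.08 untreated.

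The other families kept their leading member. Atp2a2 supplied nearly all SERCA RNA, since the Atp2a3 share of group means did not pass 0.429%, and it was 0.313% with thapsigargin and 0.0489% with DMSO in WT. Itpr3 supplied 62.2% to 74.3% of IP3 receptor RNA by group, with 68.5% with thapsigargin and 69.1% with DMSO in WT. The Itpr2 share of untreated cells was 3.50% ± 1.38 in GCN2-del, 6.43% ± 0.368 in PERK-del and 2.41% ± 0.0805 in WT (SD, n = 3 each). Summed IP3 receptor RNA in WT was 36.7 ± 7.27 TPM with thapsigargin and 47.5 ± 4.97 TPM with DMSO, and untreated it was 70.0 ± 10.4 TPM in GCN2-del, 70.8 ± 4.91 TPM in PERK-del and 53.9 ± 10.4 TPM in WT. No test was run on shares or sums.

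**Figure D4:**
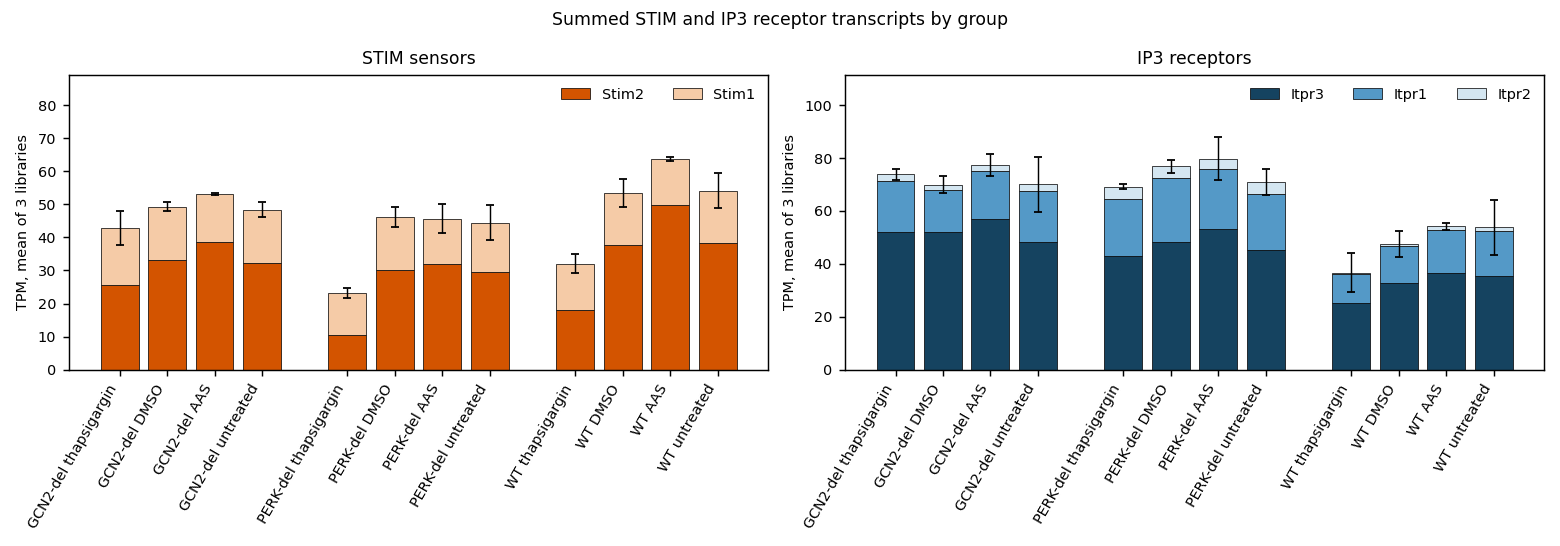
Stacked mean TPM of the STIM sensor genes and of the IP3 receptor genes in each of the 12 groups, with the SD of the summed TPM over 3 libraries as error bars. The Stim2 part is smallest in PERK-del with thapsigargin (45.1% of 23.1 TPM), and the summed IP3 receptor RNA is lowest in WT with thapsigargin (36.7 TPM).

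Several members have long transcripts, and in some groups their values moved with the long-transcript share of a library, as did those of some shorter members. The longest annotated transcripts of Itpr1, Itpr2, Itpr3, Atp2b1 and Atp2b4 were 9870, 11679, 8990, 7130 and 11725 bases, while those of Atp2a2, Stim2, Atp2a3, Stim1 and Orai1 were 5674, 4934, 4606, 4362 and 1875 bases. In WT with thapsigargin the share was 6.45% in replicate 1, where Itpr1 was 14.8 TPM and Atp2b1 115 TPM, and 5.51% and 5.53% in replicates 2 and 3, where Itpr1 was 9.15 and 8.92 TPM and Atp2b1 73.3 and 83.5 TPM. In untreated WT the share was 5.80% in replicate 3, against 7.21% and 7.95% in the others, and Itpr1, Itpr3 and Atp2b1 were lowest in replicate 3. Among shorter members, Atp2a2 was 192 TPM in that replicate, against 226 and 241 TPM, and Stim2 was 35.2 TPM, against 38.4 and 41.4 TPM. Stim1 was lowest there too, and Orai1 was highest. With thapsigargin in WT, Atp2a2 was 376 TPM in replicate 1, against 318 and 319 TPM, but Stim1, Stim2 and Orai1 had no such order. In GCN2-del with DMSO, replicate 1 had the highest share (7.86%, against 7.10% and 7.14%). Itpr3 was highest in that library, but Atp2b1 was lowest, at 63.2 TPM against 65.0 and 67.3 TPM. Median-of-ratios factors were lowest (0.884 to 0.893) in WT thapsigargin replicates 2 and 3, WT DMSO replicate 2 and WT untreated replicate 3. The share was 8.55% to 8.85% in GCN2-del with thapsigargin and 7.10% to 7.86% with DMSO, which did not overlap, so in that line it moved with the treatment. With the share as a covariate the Atp2a2 change in GCN2-del was 0.40 (adjusted p = 1.1e-05, limma), against 0.64 without it, and Itpr3 passed in GCN2-del at -0.29 (adjusted p = 0.000574). The rise of Atp2a2 in PERK-del and WT and the fall of Stim2 in all 3 lines passed with the covariate too. What sets the share was not tested.

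**Figure D5:**
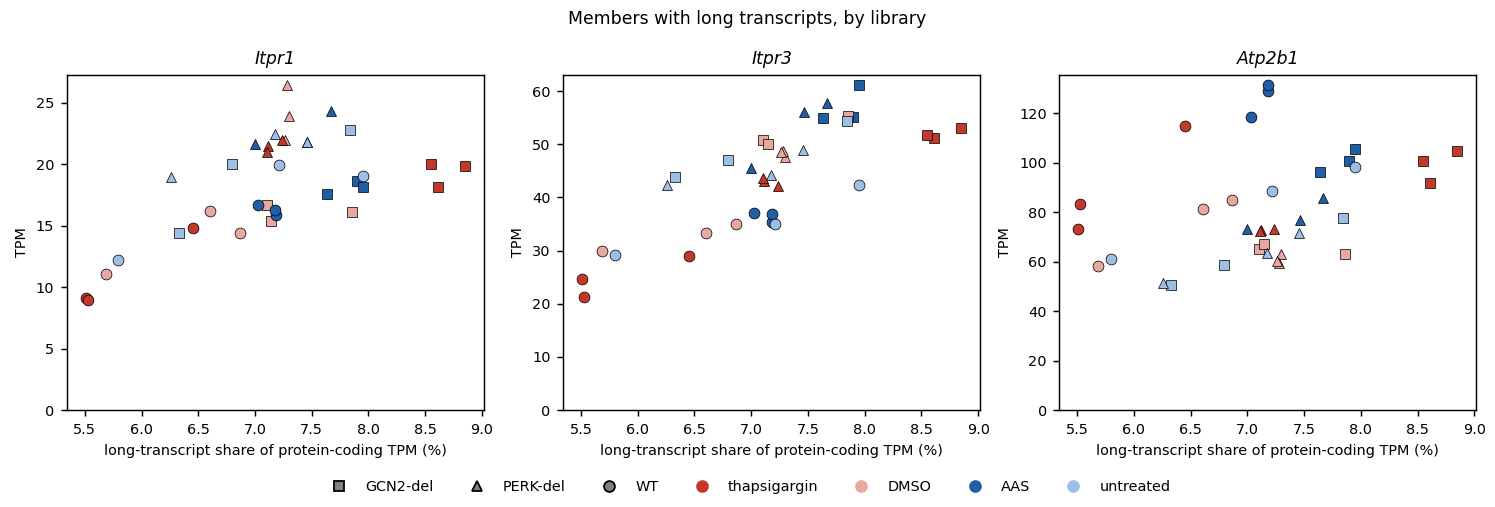
TPM of Itpr1, Itpr3 and Atp2b1 in each library against the percent of protein-coding TPM held by genes with transcripts of 6000 bases or more, with colours for treatments and symbols for lines. In WT the libraries under 6% (thapsigargin replicates 2 and 3, DMSO replicate 2, untreated replicate 3) hold the lowest Itpr1 values of that line.

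Other genes of the calcium pathway were read from lists of 83 genes, of which 82 were in the table and 69 were tested. With thapsigargin 24 rose and 9 fell in GCN2-del, 9 rose and 0 fell in PERK-del, and 18 rose and 14 fell in WT. Over all genes the matching shares were 25.4% and 11.2% in GCN2-del, 2.49% and 2.75% in PERK-del, and 11.4% and 14.8% in WT, against which the list counts below are also to be read. With starvation 7 rose and 18 fell in GCN2-del, 5 rose and 4 fell in PERK-del, and 11 rose and 17 fell in WT, where 11.7% and 12.1%, 5.67% and 6.32%, and 12.5% and 17.3% of all genes did so. The median change of the 69 was close to 0 in all 6.

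Of the ER calcium buffers, 4 of 10 rose in each line under thapsigargin, with 1 fall in GCN2-del and none in the other two. Besides Hspa5, the ER chaperone Hsp90b1 rose by 1.19 in GCN2-del, 1.88 in PERK-del and 1.47 in WT. Among regulators of the SERCA pump, Pdia3, a disulfide isomerase that acts on SERCA2, rose by 0.56, 0.98 and 0.68 in GCN2-del, PERK-del and WT. Vmp1, an ER membrane protein that activates SERCA, fell by 0.71 in GCN2-del and 0.37 in WT with thapsigargin, and changed by -0.11 in PERK-del without passing. With starvation it rose by 0.44, 0.63 and 0.38 in GCN2-del, PERK-del and WT. Of 5 tested regulators, 2 rose and 1 fell in GCN2-del, 2 rose in PERK-del, and 2 rose and 2 fell in WT under thapsigargin.

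Among other store-entry genes, 4 of 9 rose and 1 fell with thapsigargin in GCN2-del, 1 rose in PERK-del, and 4 rose and 1 fell in WT. Saraf, whose product turns store entry off, rose by 0.88, 0.36 and 0.63 in GCN2-del, PERK-del and WT. Its change differed from WT by 0.25 in GCN2-del (adjusted p = 0.0266, limma) and by -0.27 in PERK-del (adjusted p = 0.0138). Ormdl3, an ER membrane regulator of sphingolipid synthesis, rose by 0.52 in GCN2-del and 0.75 in WT and changed by 0.07 in PERK-del, a difference from WT of -0.68 (adjusted p = 4.3e-07, limma).

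In the calcineurin and NFAT list, 3 of 9 rose and 1 fell in GCN2-del, 1 rose in PERK-del, and 3 rose and 1 fell in WT under thapsigargin. Rcan1, an inhibitor of the calcium-dependent phosphatase calcineurin and itself a calcineurin target, rose by 2.52 in GCN2-del, 0.99 in PERK-del and 1.39 in WT. Its change was larger than in WT in GCN2-del (difference 1.13, adjusted p = 9.1e-07, limma) and smaller in PERK-del (difference -0.40, adjusted p = 0.0333). The transcription factor gene Nfatc1 rose by 0.75 in GCN2-del and 0.65 in WT and changed by 0.01 in PERK-del, a difference from WT of -0.64 (adjusted p = 0.000765, limma).

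Among other release and leak channels, 2 of 7 rose and 2 fell in GCN2-del, 1 rose in PERK-del, and 2 rose and 2 fell in WT under thapsigargin. Sec61a1, the translocon pore through which ER calcium can leak, rose by 0.35, 0.48 and 0.25 in GCN2-del, PERK-del and WT. The lysosomal channel gene Tpcn1 fell by 0.59 in GCN2-del and 0.75 in WT, and with starvation by 0.42, 0.34 and 0.84 in GCN2-del, PERK-del and WT. Regulators of release and IP3 metabolism gave 3 rises and 2 falls of 13 in GCN2-del, 0 and 0 in PERK-del, and 1 rise and 6 falls in WT. Itpripl2 fell by 0.56 in WT with thapsigargin and rose with starvation by 0.48, 0.33 and 0.62 in GCN2-del, PERK-del and WT. Homer3, a scaffold protein that binds IP3 receptors, fell by 0.36 in GCN2-del and 0.37 in WT with thapsigargin.

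Of 13 genes of mitochondrial calcium uptake and ER contact, 5 rose in GCN2-del, 0 in PERK-del and 2 in WT with thapsigargin, and 1 fell in WT. The uniporter pore Mcu rose by 0.61 in GCN2-del and 0.48 in WT, and the ER tether Pdzd8 by 0.91 in GCN2-del and 0.67 in WT. Pdzd8 also rose with starvation in WT, by 1.16, and in GCN2-del by 0.41. Of 3 other pumps and exchangers, the mitochondrial sodium-calcium exchanger gene Slc8b1 fell with thapsigargin by 0.62 in GCN2-del and 0.77 in WT, and with starvation by 0.45 in GCN2-del and 1.02 in WT. In starved WT cells the calcineurin subunit gene Ppp3ca rose by 0.46 and Ormdl3 by 0.37. There the lysosomal channel gene Tpcn2 fell by 0.82, the calcium-binding Nucb2 by 0.46, the phospholipase C gene Plcd1 by 0.40 and Hsp90b1 by 0.34. The calls for Tpcn2, Plcd1 and Hsp90b1 were lost with the compared groups alone, and those for Tpcn2, Nucb2 and Hsp90b1 were lost against DMSO in place of untreated cells. With thapsigargin, Tmbim6, which encodes an ER calcium leak protein, fell by 0.25 in GCN2-del and 0.19 in WT, and the WT call was lost after median-of-ratios rescaling. The wild-type calls for Canx, Tmx1, Tmco1, Itpkc, Vdac1 and Nfatc4 under thapsigargin, and for Tmx1, Nfatc4, Pkd2, Plcg1, Trpc1, Vapb and Rcan2 under starvation, were each lost when some single library was left out.

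The genes whose pattern was most like that of Atp2a2 were ranked by Pearson r over the 12 group means of log2(TPM + 1), among 10473 genes averaging at least 5 TPM. The leading 5 were Tmem248 (r = 0.946), Alg2 (0.943), Hspa5 (0.938), Nus1 (0.937) and Dnajb11 (0.932). Alg2 encodes a mannosyltransferase of N-glycan assembly, Nus1 a subunit of the enzyme that makes the dolichol carrier, and Dnajb11 an ER co-chaperone of BiP, the product of Hspa5. Alg2 averaged 30.2, 30.7 and 29.3 TPM with thapsigargin and 15.2, 17.9 and 14.9 TPM with DMSO in GCN2-del, PERK-del and WT. Tmem248 averaged 67.9, 62.6 and 60.9 TPM with thapsigargin and 50.6, 47.7 and 48.4 TPM with DMSO in the same lines. Like Atp2a2, each was highest in the 3 thapsigargin groups. The 12 groups share 3 lines and 4 treatments, and the r values are a description.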

How the data were processed

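The submitters' processing notes name FastQC, kallisto and mm10, without versions. The deposited table holds the authors' TPM by gene symbol for 36 libraries (12 groups of 3), and column totals ran from 999999.83 to 1000000.09. TPM keeps no read depth, so precision was judged from replicates alone. The log2(TPM + 1) values of 16083 genes that reached 1 TPM in 3 or more libraries were fitted over all 12 groups by limma 3.58.1 (R 4.3.3; trended, robust variances). In each of 15 comparisons p-values were adjusted over these genes by Benjamini-Hochberg, with a call under 0.05. The fit was tested on simulated data. The comparisons were thapsigargin against DMSO, AAS against untreated and DMSO against untreated in each line, each deletion line against WT untreated, and the differences of both stress effects from WT.

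All 10 members were tested in every comparison, and a member not named in a comparison did not pass there. From each pathway list, up to 2 genes with the largest rise and 2 with the largest fall in WT under each stress were named where every left-out library kept the call, and the others are listed by symbol. A gene of the store-entry list that the rule names is not reported here. Genes like Atp2a2 were the 5 with the highest r. The members and lists were chosen with earlier results of these data known. Alternatives were a pseudocount of 0.1 TPM, no filter, median-of-ratios rescaling, the compared groups alone, a replicate block, the other control, each library left out, and, added after the data were seen, the long-transcript share as a covariate. Transcript lengths and loci came from GENCODE M21 (GRCm38), promoters from RefSeq (GRCm38.p6). Python 3.11.15 and matplotlib 3.10.9 drew the figures.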

Additional observations from a re-analysis of the deposited data

Results flagged for a closer look

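Of the 10 genes, 2 had a treatment effect that differed between a deletion line and WT by a test of the difference itself (limma, adjusted over 16083 genes). For Atp2a3 the log2 thapsigargin effect in GCN2-del minus that in WT was -0.62 and that in PERK-del minus WT was -0.81. For Atp2a3 under starvation the differences were -0.81 for GCN2-del and -0.73 for PERK-del. For Stim2 the thapsigargin effect in GCN2-del minus that in WT was 0.65. The Atp2a3 levels behind these values lie near or below 1 TPM, and both differences for a stress share the WT libraries. Atp2a3 passed the filter only through groups in which it was high, and its tests are to be read with that. For Atp2a3 with thapsigargin the ratio of mean TPM was 9.31 in GCN2-del and 10.2 in WT, so the difference of -0.62 belongs to the log2(TPM + 1) scale. It was lost with a pseudocount of 0.1 TPM, with the long-transcript covariate, with the compared groups alone and without any of 3 libraries, and 13 of 19 alternatives kept it.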

How the results depend on the processing

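The rise of Atp2a2 and, outside GCN2-del, the fall of Stim2 with thapsigargin kept their calls under every alternative run, and no member's call changed sign. The log2 change of Atp2a2 ran from 0.40 to 0.70 in GCN2-del, 0.79 to 0.92 in PERK-del and 0.61 to 0.80 in WT, and that of Stim2 from -1.53 to -1.40 in PERK-del and -1.10 to -0.96 in WT. Over 150 member results, the call was lost or gained in 1 and 2 with a pseudocount of 0.1 TPM, 3 and 0 with no filter, 1 and 7 with median-of-ratios rescaling, 12 and 4 with the compared groups alone, and 4 and 14 with the long-transcript covariate. With the other control it was lost in 4 and gained in 9 of 120. Counts of members called with thapsigargin in PERK-del were 4 for the compared groups alone and 5 with the covariate, against 2. With starvation, GCN2-del had 1 with no filter and 1 with the other control, against 2, and PERK-del had 2 after rescaling, against 0. Untreated, the compared groups alone gave 1 in GCN2-del, against 4, and 3 in PERK-del, against 7. For the difference of thapsigargin effects GCN2-del minus WT, the count of 2 was 1 with the pseudocount of 0.1, with the covariate and with the groups alone, and 4 with the other control. For PERK-del minus WT the count of 1 was 2 with the pseudocount, the covariate and the groups alone, and 3 with the other control. The starvation difference PERK-del minus WT gave 2 with the covariate and 0 with the groups alone, against 1. Leaving out 1 library gave 1 to 3 for starvation in GCN2-del, 1 to 4 for the thapsigargin difference GCN2-del minus WT and 1 to 2 for PERK-del minus WT.

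Further calls rested on the setting. With the compared groups alone, where 6 or 12 libraries set the spread, the calls were lost for Itpr3 with thapsigargin in WT, Stim2 with thapsigargin in GCN2-del, Atp2b1 with starvation in WT, and Itpr2 and Itpr3 in untreated GCN2-del. Stim1 with thapsigargin in PERK-del passed after rescaling (-0.26), and Orai1 in untreated PERK-del was lost (0.18). Against untreated in place of DMSO, Itpr1 fell with thapsigargin in WT (-0.60). Of the pathway genes, Pdzd8 and Pkd2 turned in sign for the thapsigargin difference GCN2-del minus WT with the covariate (-0.32 and -0.45), Pkd2 also for thapsigargin in GCN2-del (-0.28), and Tpcn2 for GCN2-del against WT between DMSO groups (0.10). The cause was not tested.

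Counts over all genes moved by over 1.5 times in several comparisons. With thapsigargin in PERK-del, 843 became 1419 with the covariate and 1514 with the other control. With starvation, 4799 in WT became 2191 and 1929 in PERK-del became 282 with the groups alone, or 3464 in PERK-del with the covariate. Untreated, 7140 in GCN2-del became 4326 and 7981 in PERK-del became 4683 with the groups alone. The thapsigargin difference GCN2-del minus WT, 2276 genes, ran from 765 with the covariate to 5709 with the other control. After rescaling, 2988 genes rose and 3216 fell with thapsigargin in GCN2-del, against 4085 and 1805. The same-numbered libraries of compared groups did not deviate together (correlations of deviations -0.16 to 0.16, median -0.01, over 54 pairs). With 3 libraries a group, that check cannot exclude pairing by number. A fit with the replicate block changed 0 of 150 member calls (for Stim2 with thapsigargin in WT, -1.02). Read depth is not known from TPM, so its part in the precision of low genes such as Atp2a3 could not be judged.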
